A study of Rattus norvegicus with 33 samples.

Results

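Genes of cholesterol and fatty acid synthesis were followed in the dorsal root ganglia (DRG) of rats after spinal surgery. The group holds 35 genes chosen by name: 18 enzymes of sterol synthesis, 6 regulators and carriers of sterols, and 11 genes of fatty acid synthesis, elongation, desaturation and activation. The 35 were chosen with earlier results of these data known. A probe carried the symbol of 30 of them, and 29 were measured. In all, 8526 genes with a symbol and 12029 probes passed the detection filter. Measured here means that, in 1 group or more, 75% or more of its arrays had a detection p-value under 0.05. All 29 were detected on each of the 33 arrays, so that the filter chose none of them through a single high group. Elovl6, a fatty acid elongase, had a probe that did not pass, and Hmgcs1, Mvk, Lss, Insig1 and Fasn are not analysed here because no probe carried their symbols.

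Cells make cholesterol from acetyl-CoA through mevalonate, the isoprenoid diphosphates, squalene and lanosterol, mostly at the membrane of the endoplasmic reticulum. When sterols are scarce, the escort protein SCAP carries the membrane-bound SREBP transcription factors to the Golgi, where they are cut and released, and INSIG proteins hold the complex back when sterols are plentiful. SREBP-2, from Srebf2, acts mainly on the sterol enzymes, and SREBP-1, from Srebf1, mainly on the fatty acid genes. In peripheral ganglia, the myelin of Schwann cells and the long membranes of sensory neurons are both rich in cholesterol and in long acyl chains.

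The rats were Sasco/Sprague-Dawley animals of 13 weeks, female per the study's methods. In the rhBMP-2/ACS groups, absorbable bovine collagen sponges (ACS) soaked with recombinant human bone morphogenetic protein-2 were laid unilaterally on the transverse processes of the lumbar spine. The vehicle/ACS groups received the same sponges with buffer alone, and the no sponge groups the surgery alone, so that every rat had been operated on and no unoperated rat was among the 33. Ganglia were taken at 1, 3 or 7 days post surgery (dps), with 4 arrays per group at 1 and 7 dps and 3 per group at 3 dps. The study's legend to its array heat map has a single rat behind each column and, for the sponge groups, ganglia ipsilateral to the implant. The study's methods say that only the RNA samples of best quality and concentration went to arrays. Those methods speak of more RNA samples than the 3 arrays per group at 3 dps, and the labels do not name the animals. Whole ganglia were measured, so that fewer cells of a type and less RNA per cell cannot be told apart.

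Values are log2 probe intensities after background correction and quantile normalization over all arrays, and levels are not compared between genes, since each probe binds with its own strength. Detected probes numbered 10142 to 11674 per array, no array pair was identical, and 14 of 16 sensory neuron markers were measured, with summed intensities from 91289 to 107770 per array. Calca, a neuropeptide gene of that list, was not detected. P-values rest on the spread of arrays within groups, pooled over all 9 groups, and not on that of the compared groups alone. At 3 dps, replicate 3 of rhBMP-2/ACS had the lowest array weight of all 33 (0.442, limma's estimate of how closely an array follows its group) and the lowest mean correlation within its group (0.985). The calls, medians and group separations of 3 dps are given with and without it below. Differences are limma estimates with their standard error (SE), and p-values were adjusted over all 12029 probes by the Benjamini-Hochberg method.

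The main pattern lay at 3 dps. With rhBMP-2/ACS, 8 of the 29 measured genes were lower than with vehicle/ACS past an adjusted p of 0.05 and 0 were higher, against 4.56% of all probes called lower and 5.98% called higher. The 8 were the sterol enzymes Acat2, Sqle and Nsdhl, the regulator Srebf1, the carrier Stard4, and the fatty acid genes Acly, Scd and Fads2. The largest decrease was that of Scd, to 1.58-fold less than with vehicle/ACS, followed by Fads2 (1.51-fold) and Stard4 (1.38-fold). All 15 sterol enzymes had estimates below 0, with a median log2 fold change of -0.28 and a range from -0.37 to -0.04, where the median of all probes was -0.03 and 55.2% of them were below 0. The 9 fatty acid genes had a median of -0.20 and 7 estimates below 0. The 5 regulators and carriers were split, with Srebf1 and Stard4 lower and Insig2, Srebf2 and Scap at 0.07, 0.15 and 0.15, none of which passed. In 13 of the 29 genes every rhBMP-2/ACS array lay below every vehicle/ACS array, against 12.2% of all probes. None of the 29 passed the study's own limits on fold change and unadjusted p, which 3.32% of all probes passed.

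**Figure D1:**
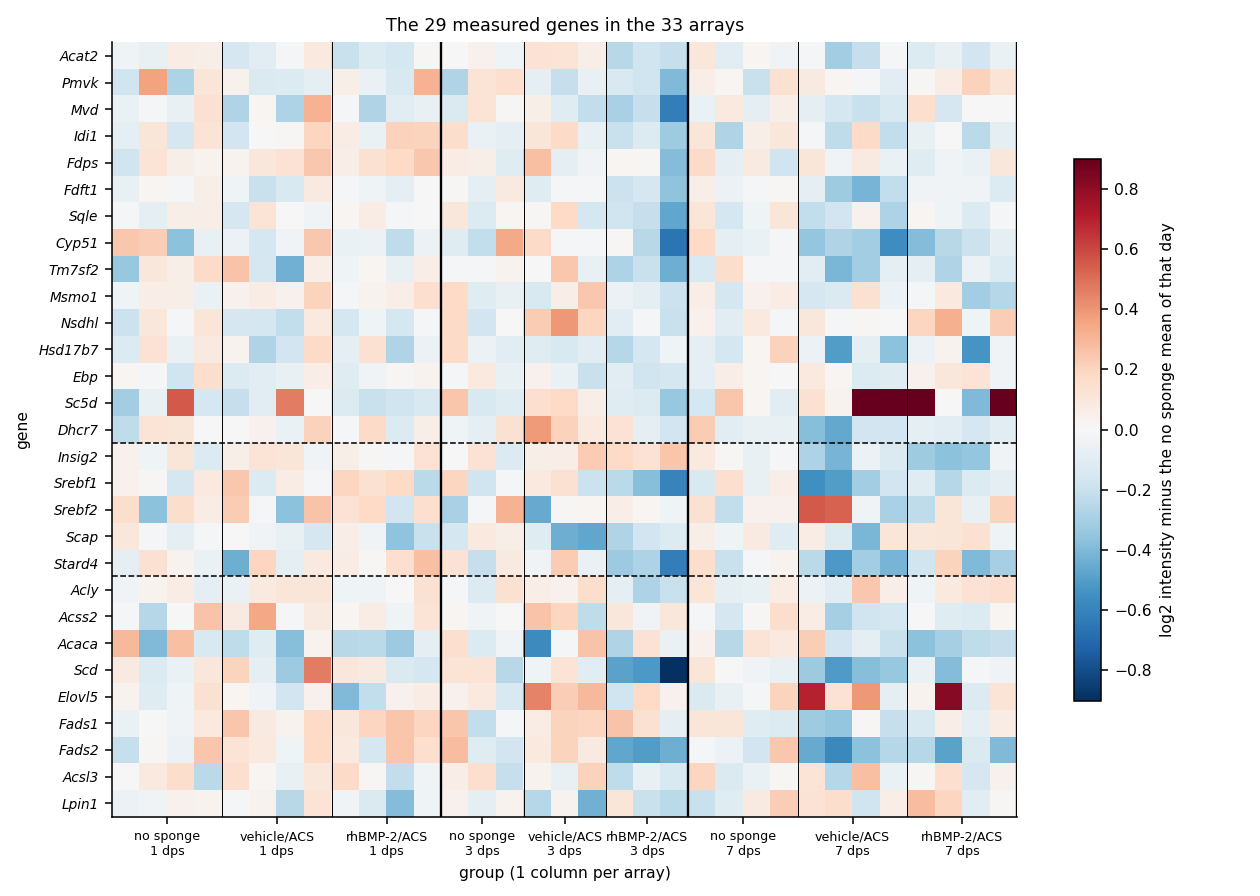
Log2 intensity of each of the 29 measured genes (rows) in each of the 33 arrays (columns), minus the no sponge mean of the same day. Red is above that mean and blue below. Colours are capped at 0.9, which 5 cells exceed, and dashed lines part sterol enzymes, regulators and fatty acid genes. The rhBMP-2/ACS columns at 3 dps are mostly blue, and the third of them is the bluest.

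Averaged over the 15 sterol enzymes, the rhBMP-2/ACS arrays at 3 dps lay -0.13, -0.14 and -0.33 from the no sponge mean of that day on the log2 scale, and the vehicle/ACS arrays 0.07, 0.06 and -0.02. The number of sterol enzymes below the no sponge mean was 12, 14 and 15 of 15 in the rhBMP-2/ACS arrays and 4, 7 and 10 in the vehicle/ACS arrays. For the 9 fatty acid genes the same means were -0.14, -0.13 and -0.23 with rhBMP-2/ACS and 0.01, 0.10 and 0.05 with vehicle/ACS. In both classes all rhBMP-2/ACS arrays were the lower ones, and replicate 3 was the lowest.

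Upstream sequence was examined for the sites through which such genes are commonly driven. RefSeq (GRCr8) promoter windows of 300 bases, from 250 before to 50 after the annotated start, were at hand for 28 of the 35 genes, 24 of them measured. The sterol response element in the form TCACNCCAC, searched on both strands, was found in 0 of the 28 windows and in 1.06% of the windows of 18999 protein-coding genes. Its absence says only that these letters are not in these windows. A CCAAT box, the site of the factor NF-Y, stood in 22 of 28 windows (78.6%) against 38.4% of all, and a GC box (GGGCGG), the site of SP1, likewise in 22 of 28 against 43.1%. The 18999 genes were not limited to those detected in these ganglia, and the shares among detected genes were not counted. The windows of the 4 called genes with the lowest p-values that had one are shown 5′ to 3′, with CCAAT and GGGCGG boxes of either strand in capitals, to let their makeup be compared. They were chosen after the search, since none held the sterol response element.
Scd promoter, GRCr8 chr1:253231682-253231981, minus strand: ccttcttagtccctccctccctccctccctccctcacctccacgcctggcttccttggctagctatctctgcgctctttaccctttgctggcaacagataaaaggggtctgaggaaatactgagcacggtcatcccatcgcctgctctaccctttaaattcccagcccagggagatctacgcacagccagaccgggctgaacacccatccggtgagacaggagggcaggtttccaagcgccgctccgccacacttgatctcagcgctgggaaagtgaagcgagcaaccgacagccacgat
Fads2 promoter, GRCr8 chr1:216171984-216172283, minus strand: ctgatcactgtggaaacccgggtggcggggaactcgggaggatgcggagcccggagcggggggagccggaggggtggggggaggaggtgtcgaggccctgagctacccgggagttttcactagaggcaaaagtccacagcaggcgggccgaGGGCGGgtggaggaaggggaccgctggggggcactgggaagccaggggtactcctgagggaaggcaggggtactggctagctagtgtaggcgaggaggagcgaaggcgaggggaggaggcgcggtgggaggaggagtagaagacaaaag
Acat2 promoter, GRCr8 chr1:50100590-50100889, plus strand: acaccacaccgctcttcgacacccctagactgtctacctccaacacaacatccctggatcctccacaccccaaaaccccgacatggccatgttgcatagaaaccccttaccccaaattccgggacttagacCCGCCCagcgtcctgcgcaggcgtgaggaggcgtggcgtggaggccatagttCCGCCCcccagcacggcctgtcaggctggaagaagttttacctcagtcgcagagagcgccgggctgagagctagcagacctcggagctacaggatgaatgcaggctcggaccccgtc
Nsdhl promoter, GRCr8 chrX:155817110-155817409, plus strand: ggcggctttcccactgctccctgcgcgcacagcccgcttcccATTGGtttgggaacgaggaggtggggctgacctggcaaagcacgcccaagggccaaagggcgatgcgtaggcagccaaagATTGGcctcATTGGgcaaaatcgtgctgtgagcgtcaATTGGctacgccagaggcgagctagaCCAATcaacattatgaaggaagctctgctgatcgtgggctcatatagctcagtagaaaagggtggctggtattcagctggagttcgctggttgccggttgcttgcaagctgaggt
Scd held neither box, Fads2 held 1 GC box, Acat2 held 2 GC boxes and Nsdhl held 5 CCAAT boxes. Neither box thus stood in all 4 of these windows. Srebf1 and Acly, also called lower at 3 dps, each held 1 CCAAT box and 3 GC boxes, and Sqle and Stard4 had no window. Of the 8 genes called in any comparison that had a window, 4 held a CCAAT box and 6 a GC box. A match is a description of sequence, and no binding was measured.

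Among the sterol enzymes, Acat2 makes acetoacetyl-CoA at the entry to the mevalonate route. At 3 dps, Acat2 measured 12.34, 12.38 and 12.30 without sponge, 12.47, 12.46 and 12.39 with vehicle/ACS and 12.09, 12.16 and 12.13 with rhBMP-2/ACS. The rhBMP-2/ACS arrays lay below all others of that day and the vehicle/ACS arrays above all others, and the difference between them was -0.31 (SE 0.0721, adjusted p = 0.0055). Against no sponge it was -0.21 (SE 0.0721, adjusted p = 0.0668), which did not pass. Acat2 had log2 intensities of 12.24, 12.21, 12.35 and 12.33 without sponge, 12.13, 12.18, 12.27 and 12.37 with vehicle/ACS and 12.08, 12.16, 12.12 and 12.29 with rhBMP-2/ACS at 1 dps. Acat2 at 7 dps stood at 12.32, 12.12, 12.24 and 12.19 without sponge, 12.21, 11.91, 12.01 and 12.20 with vehicle/ACS and 12.10, 12.15, 12.05 and 12.16 with rhBMP-2/ACS. The groups overlapped on both of these days.

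Sqle encodes squalene epoxidase, a slow oxygen-dependent step that leads from squalene to lanosterol. At 3 dps, Sqle measured 11.08, 10.86 and 11.00 without sponge, 10.99, 11.16 and 10.82 with vehicle/ACS and 10.80, 10.77 and 10.51 with rhBMP-2/ACS. The rhBMP-2/ACS arrays were the lowest here too, at -0.30 (SE 0.091, adjusted p = 0.0333) against vehicle/ACS and -0.29 (SE 0.091, adjusted p = 0.0486) against no sponge, which share the rhBMP-2/ACS arrays. Sqle had log2 intensities of 10.82, 10.74, 10.88 and 10.89 without sponge, 10.68, 10.95, 10.83 and 10.80 with vehicle/ACS and 10.85, 10.90, 10.82 and 10.83 with rhBMP-2/ACS at 1 dps. Sqle at 7 dps stood at 11.11, 10.84, 10.96 and 11.11 without sponge, 10.78, 10.83, 11.04 and 10.72 with vehicle/ACS and 11.02, 10.96, 10.88 and 10.99 with rhBMP-2/ACS. Outside 3 dps the ranges of the groups overlapped.

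Nsdhl, on the X chromosome, encodes a dehydrogenase that helps strip methyl groups from the sterol ring. At 3 dps, Nsdhl measured 9.30, 8.96 and 9.13 without sponge, 9.36, 9.52 and 9.32 with vehicle/ACS and 9.03, 9.12 and 8.93 with rhBMP-2/ACS. Here vehicle/ACS stood highest, above every no sponge and every rhBMP-2/ACS array, and rhBMP-2/ACS was lower by -0.37 (SE 0.0982, adjusted p = 0.0149). Vehicle/ACS against no sponge gave 0.27 (SE 0.0982, adjusted p = 0.216) and rhBMP-2/ACS against no sponge -0.10 (SE 0.0982, adjusted p = 0.576), neither past the threshold. Nsdhl had log2 intensities of 8.85, 9.14, 9.03 and 9.15 without sponge, 8.89, 8.88, 8.82 and 9.13 with vehicle/ACS and 8.88, 9.00, 8.88 and 9.03 with rhBMP-2/ACS at 1 dps. Nsdhl at 7 dps stood at 8.82, 8.68, 8.87 and 8.77 without sponge, 8.88, 8.77, 8.79 and 8.78 with vehicle/ACS and 8.97, 9.10, 8.74 and 9.00 with rhBMP-2/ACS. At 7 dps, 3 of the 4 rhBMP-2/ACS arrays were above all arrays of the other groups.

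Mvd encodes mevalonate diphosphate decarboxylase, which makes the first isoprenoid unit. At 3 dps, Mvd measured 9.69, 9.94 and 9.83 without sponge, 9.87, 9.71 and 9.60 with vehicle/ACS and 9.53, 9.61 and 9.20 with rhBMP-2/ACS. All rhBMP-2/ACS arrays lay below the no sponge arrays, by -0.38 (SE 0.116, adjusted p = 0.0438), while against vehicle/ACS the groups overlapped at a single array and the difference was -0.28 (SE 0.116, adjusted p = 0.118). Mvd had log2 intensities of 10.09, 10.13, 10.08 and 10.29 without sponge, 9.88, 10.17, 9.87 and 10.46 with vehicle/ACS and 10.13, 9.88, 10.05 and 10.08 with rhBMP-2/ACS at 1 dps. Mvd at 7 dps stood at 9.84, 9.99, 9.82 and 9.95 without sponge, 9.81, 9.74, 9.70 and 9.76 with vehicle/ACS and 10.05, 9.75, 9.90 and 9.90 with rhBMP-2/ACS. The vehicle/ACS arrays at 7 dps were all below the no sponge arrays, with -0.15 (SE 0.101, adjusted p = 0.385), which did not pass.

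Fdft1 (squalene synthase) joins farnesyl units into squalene, the step at which the route is committed to sterols. At 3 dps, Fdft1 measured 10.62, 10.52 and 10.69 without sponge, 10.50, 10.59 and 10.60 with vehicle/ACS and 10.42, 10.46 and 10.25 with rhBMP-2/ACS. The rhBMP-2/ACS arrays lay below those of both other groups, with -0.19 (SE 0.0756, adjusted p = 0.105) against vehicle/ACS and -0.24 (SE 0.0756, adjusted p = 0.0522) against no sponge, neither past the threshold. Fdft1 had log2 intensities of 10.36, 10.26, 10.30 and 10.32 without sponge, 10.23, 9.99, 9.89 and 10.09 with vehicle/ACS and 10.28, 10.28, 10.28 and 10.19 with rhBMP-2/ACS at 7 dps. On that day every vehicle/ACS array lay below every no sponge array, by -0.26 (SE 0.0655, adjusted p = 0.009), and vehicle/ACS overlapped rhBMP-2/ACS. Fdft1 at 1 dps stood at 10.23, 10.32, 10.29 and 10.35 without sponge, 10.26, 10.10, 10.16 and 10.38 with vehicle/ACS and 10.28, 10.26, 10.21 and 10.30 with rhBMP-2/ACS. These overlapped.

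Dhcr7 encodes the reductase of the last step to cholesterol. At 3 dps, Dhcr7 measured 10.10, 10.05 and 10.28 without sponge, 10.52, 10.35 and 10.23 with vehicle/ACS and 10.27, 10.05 and 9.97 with rhBMP-2/ACS. The groups overlapped, and the difference of rhBMP-2/ACS from vehicle/ACS, -0.27 (SE 0.106, adjusted p = 0.0959), did not pass. Dhcr7 had log2 intensities of 10.44, 10.11, 10.14 and 10.14 without sponge, 9.83, 9.75, 10.04 and 10.04 with vehicle/ACS and 10.12, 10.11, 10.06 and 10.11 with rhBMP-2/ACS at 7 dps. Vehicle/ACS lay below every no sponge array, by -0.29 (SE 0.0919, adjusted p = 0.039). It also lay below every rhBMP-2/ACS array, though that difference did not pass. Of the 29 genes, 1 was separated in this direction at 7 dps and 1 in the other. The latter was Acaca, at 5.63 to 5.79 with rhBMP-2/ACS and 5.80 to 6.22 with vehicle/ACS. The share of all probes so separated is not given here. Dhcr7 at 1 dps stood at 9.35, 9.70, 9.69 and 9.58 without sponge, 9.58, 9.62, 9.52 and 9.79 with vehicle/ACS and 9.56, 9.75, 9.46 and 9.63 with rhBMP-2/ACS. The groups overlapped at 1 dps.

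The other 9 sterol enzymes passed in no within-day comparison by their brightest probe. At 3 dps, their estimates for rhBMP-2/ACS against vehicle/ACS were -0.12 for Pmvk (phosphomevalonate kinase), -0.28 for Idi1 (isopentenyl diphosphate isomerase), -0.17 for Fdps (farnesyl diphosphate synthase), -0.35 for Cyp51 (the lanosterol demethylase) and -0.16 for Msmo1 (a methylsterol oxidase) on the log2 scale. For the later steps they were -0.36 for the sterol reductase Tm7sf2, -0.04 for the keto-reductase Hsd17b7, -0.07 for the isomerase Ebp and -0.32 for the desaturase Sc5d. Tm7sf2 was the single gene with another kept probe, a dimmer one, which gave -0.34 relative to vehicle/ACS at 3 dps and was called lower against no sponge at 7 dps (log2 fold change -0.41, SE 0.12, adjusted p = 0.0485), where the brighter probe gave -0.13 and did not pass. The probes of this gene thus disagreed on that call. Sc5d, chosen after its values were seen, was the most spread at 7 dps, at 8.79, 9.20, 8.97 and 8.85 without sponge, 9.09, 8.98, 10.03 and 9.94 with vehicle/ACS and 10.01, 8.95, 8.55 and 9.97 with rhBMP-2/ACS. Both sponge groups thus held a pair of high and a pair of low arrays, and the difference of vehicle/ACS from no sponge, 0.56 (SE 0.242, adjusted p = 0.148), did not pass.

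**Figure D2:**
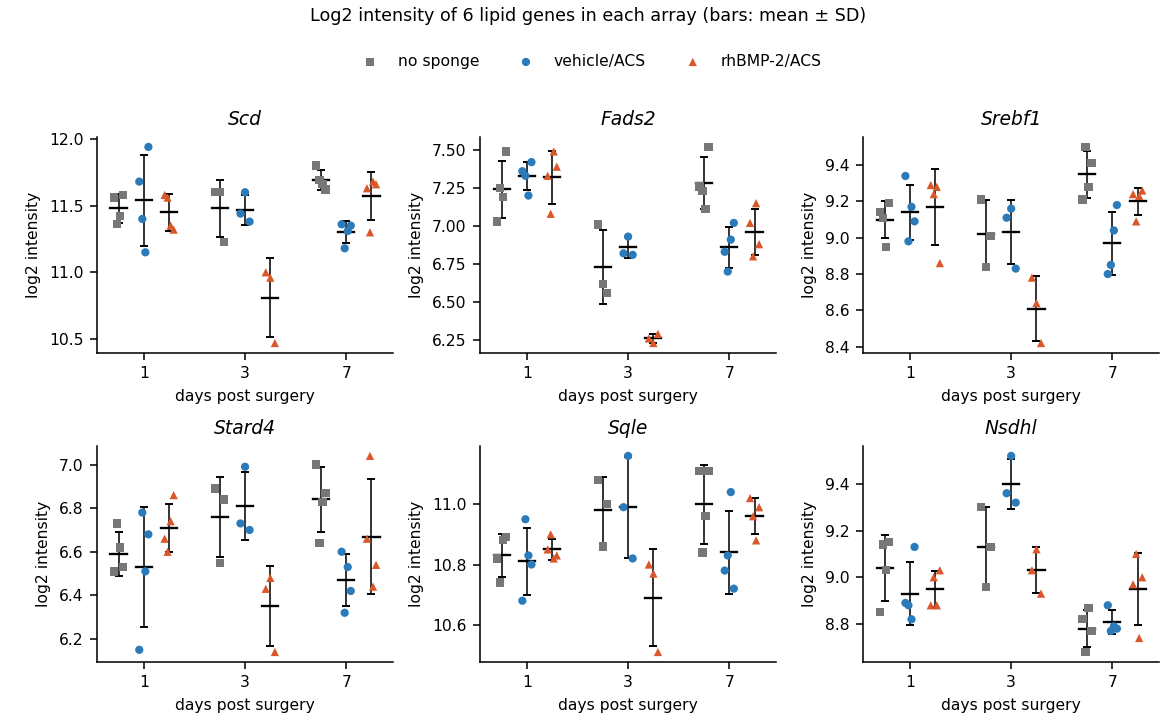
Log2 intensity (vertical axes) of Scd, Fads2, Srebf1, Stard4, Sqle and Nsdhl in each array at 1, 3 and 7 dps (horizontal axes). Squares are no sponge, circles vehicle/ACS and triangles rhBMP-2/ACS, and bars give the mean ± SD of 4, 3 and 4 arrays. The triangles at 3 dps lie below the vehicle/ACS circles in all 6 genes.

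Of the regulators, Srebf1 encodes SREBP-1, a factor of lipogenic genes that is itself raised by insulin and by liver X receptors. At 3 dps, Srebf1 measured 9.21, 8.84 and 9.01 without sponge, 9.11, 9.16 and 8.83 with vehicle/ACS and 8.78, 8.64 and 8.42 with rhBMP-2/ACS. The rhBMP-2/ACS arrays were the lowest, by -0.42 (SE 0.123, adjusted p = 0.0262) against vehicle/ACS and -0.41 (SE 0.123, adjusted p = 0.0384) against no sponge. Srebf1 had log2 intensities of 9.21, 9.50, 9.28 and 9.41 without sponge, 8.80, 8.85, 9.04 and 9.18 with vehicle/ACS and 9.24, 9.09, 9.23 and 9.26 with rhBMP-2/ACS at 7 dps. Now all vehicle/ACS arrays were below the no sponge arrays, by -0.38 (SE 0.107, adjusted p = 0.0193), and the rhBMP-2/ACS arrays lay between and overlapped both. Srebf1 at 1 dps stood at 9.14, 9.11, 8.95 and 9.19 without sponge, 9.34, 8.98, 9.17 and 9.09 with vehicle/ACS and 9.29, 9.24, 9.28 and 8.86 with rhBMP-2/ACS. No difference passed at 1 dps.

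Stard4 encodes a soluble carrier that moves cholesterol between membranes. At 3 dps, Stard4 measured 6.89, 6.55 and 6.84 without sponge, 6.73, 6.99 and 6.70 with vehicle/ACS and 6.43, 6.48 and 6.14 with rhBMP-2/ACS. Every rhBMP-2/ACS array was below the others, with -0.46 (SE 0.151, adjusted p = 0.0463) against vehicle/ACS and -0.41 (SE 0.151, adjusted p = 0.09) against no sponge, the latter not past the threshold. Stard4 had log2 intensities of 7.00, 6.64, 6.83 and 6.87 without sponge, 6.60, 6.32, 6.53 and 6.42 with vehicle/ACS and 6.66, 7.04, 6.44 and 6.54 with rhBMP-2/ACS at 7 dps. All vehicle/ACS arrays were below the no sponge arrays, though -0.37 (SE 0.131, adjusted p = 0.0667) did not pass. Stard4 at 1 dps stood at 6.51, 6.73, 6.62 and 6.53 without sponge, 6.15, 6.78, 6.51 and 6.68 with vehicle/ACS and 6.66, 6.60, 6.74 and 6.86 with rhBMP-2/ACS. The groups overlapped.

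Insig2 and Scap, which hold back and escort the SREBP factors, passed in no comparison. They are described because fewer than 4 regulators had passed. At 7 dps, Insig2 measured 9.23, 9.15, 9.07 and 9.12 without sponge, 8.86, 8.72, 9.09 and 9.01 with vehicle/ACS and 8.82, 8.77, 8.79 and 9.11 with rhBMP-2/ACS. Both sponge groups had their mean below the no sponge mean for Insig2, with -0.22 (SE 0.0803, adjusted p = 0.0757) for vehicle/ACS and -0.27 (SE 0.0803, adjusted p = 0.0553) for rhBMP-2/ACS against the shared no sponge arrays, and both overlapped them. Insig2 had log2 intensities of 9.11, 9.24 and 8.99 without sponge, 9.16, 9.17 and 9.34 with vehicle/ACS and 9.28, 9.24 and 9.36 with rhBMP-2/ACS at 3 dps. Insig2 at 1 dps stood at 9.01, 8.93, 9.08 and 8.85 without sponge, 9.02, 9.09, 9.08 and 8.94 with vehicle/ACS and 9.02, 8.98, 8.96 and 9.10 with rhBMP-2/ACS. These values differed little by group. At 3 dps, Scap measured 9.05, 9.30 and 9.26 without sponge, 9.10, 8.77 and 8.74 with vehicle/ACS and 8.94, 9.04 and 9.09 with rhBMP-2/ACS. Scap overlapped between the groups at 3 dps, with -0.34 (SE 0.112, adjusted p = 0.177) for vehicle/ACS against no sponge. Scap had log2 intensities of 10.25, 10.13, 10.07 and 10.14 without sponge, 10.15, 10.12, 10.08 and 10 with vehicle/ACS and 10.21, 10.12, 9.79 and 9.95 with rhBMP-2/ACS at 1 dps. Scap at 7 dps stood at 9.13, 9.04, 9.16 and 8.97 without sponge, 9.15, 8.96, 8.67 and 9.19 with vehicle/ACS and 9.18, 9.19, 9.22 and 9.04 with rhBMP-2/ACS. By day, every array of 1 dps was above every later array. Srebf2, the gene of the main sterol factor SREBP-2, gave 0.15 (SE 0.2, adjusted p = 0.686) for rhBMP-2/ACS relative to vehicle/ACS at 3 dps. Its 95% interval ran from -0.26 to 0.56, and its difference from Srebf1 and Stard4 was not tested.

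Among the fatty acid genes, Acly encodes ATP citrate lyase, which makes cytosolic acetyl-CoA for both routes. At 3 dps, Acly measured 10.51, 10.41 and 10.67 without sponge, 10.59, 10.57 and 10.69 with vehicle/ACS and 10.45, 10.25 and 10.33 with rhBMP-2/ACS. The rhBMP-2/ACS arrays were below every vehicle/ACS array, by -0.27 (SE 0.083, adjusted p = 0.0333), and overlapped no sponge (-0.18 (SE 0.083, adjusted p = 0.171)). Acly had log2 intensities of 10.38, 10.44, 10.48 and 10.33 without sponge, 10.35, 10.50, 10.52 and 10.52 with vehicle/ACS and 10.37, 10.37, 10.41 and 10.55 with rhBMP-2/ACS at 1 dps. Acly at 7 dps stood at 10.84, 10.64, 10.66 and 10.80 without sponge, 10.68, 10.63, 10.97 and 10.79 with vehicle/ACS and 10.69, 10.82, 10.86 and 10.88 with rhBMP-2/ACS. Neither of these days separated the groups.

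Scd, stearoyl-CoA desaturase, introduces the double bond of oleate and had the largest change of all 29 genes at 3 dps. At 3 dps, Scd measured 11.60, 11.60 and 11.23 without sponge, 11.44, 11.60 and 11.38 with vehicle/ACS and 11.00, 10.96 and 10.47 with rhBMP-2/ACS. No rhBMP-2/ACS array reached the lowest array of the other groups, and the difference was -0.66 (SE 0.143, adjusted p = 0.00357) against vehicle/ACS and -0.67 (SE 0.143, adjusted p = 0.00484) against no sponge. Scd had log2 intensities of 11.80, 11.69, 11.66 and 11.62 without sponge, 11.36, 11.18, 11.31 and 11.35 with vehicle/ACS and 11.63, 11.30, 11.68 and 11.66 with rhBMP-2/ACS at 7 dps. Vehicle/ACS was now below every no sponge array, by -0.39 (SE 0.124, adjusted p = 0.0408), while 3 of 4 rhBMP-2/ACS arrays lay within the no sponge range and replicate 2 within the vehicle/ACS range. Scd at 1 dps stood at 11.56, 11.36, 11.42 and 11.58 without sponge, 11.68, 11.40, 11.15 and 11.94 with vehicle/ACS and 11.58, 11.56, 11.35 and 11.32 with rhBMP-2/ACS. At 1 dps the vehicle/ACS arrays alone spanned the range of the other groups.

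Fads2 encodes the desaturase that opens the route from linoleate to the long polyunsaturated fatty acids, and Fads1 the desaturase of a later step of it. At 3 dps, Fads2 measured 7.01, 6.62 and 6.56 without sponge, 6.82, 6.93 and 6.81 with vehicle/ACS and 6.26, 6.23 and 6.29 with rhBMP-2/ACS. The rhBMP-2/ACS arrays had an SD of 0.028 (n = 3) and all lay below both other groups, by -0.60 (SE 0.131, adjusted p = 0.00399) against vehicle/ACS and -0.47 (SE 0.131, adjusted p = 0.0265) against no sponge. Fads2 had log2 intensities of 7.26, 7.23, 7.11 and 7.52 without sponge, 6.83, 6.70, 6.91 and 7.02 with vehicle/ACS and 7.02, 6.80, 7.15 and 6.88 with rhBMP-2/ACS at 7 dps. Here vehicle/ACS was below every no sponge array, by -0.42 (SE 0.114, adjusted p = 0.0162), and rhBMP-2/ACS against no sponge gave -0.32 (SE 0.114, adjusted p = 0.12), which did not pass. Fads2 at 1 dps stood at 7.03, 7.25, 7.19 and 7.49 without sponge, 7.36, 7.33, 7.20 and 7.42 with vehicle/ACS and 7.33, 7.08, 7.49 and 7.39 with rhBMP-2/ACS. The groups overlapped at 1 dps. At 3 dps, Fads1 measured 10.37, 9.90 and 10.11 without sponge, 10.19, 10.32 and 10.31 with vehicle/ACS and 10.38, 10.26 and 10.04 with rhBMP-2/ACS. Fads1 had log2 intensities of 10.29, 10.29, 10.07 and 10.06 without sponge, 9.86, 9.83, 10.19 and 9.97 with vehicle/ACS and 10.04, 10.24, 10.09 and 10.25 with rhBMP-2/ACS at 7 dps. Fads1 at 1 dps stood at 10.17, 10.23, 10.20 and 10.32 without sponge, 10.48, 10.31, 10.26 and 10.41 with vehicle/ACS and 10.33, 10.42, 10.48 and 10.42 with rhBMP-2/ACS. In Fads1 the groups overlapped except at 1 dps, where every rhBMP-2/ACS array was above every no sponge array (2.07% of all probes). It passed in no comparison and is described to bring the fatty acid genes to 4, with -0.04 (SE 0.103, adjusted p = 0.843) for rhBMP-2/ACS relative to vehicle/ACS at 3 dps and -0.21 (SE 0.0891, adjusted p = 0.133) for vehicle/ACS against no sponge at 7 dps.

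The other 5 measured fatty acid genes passed nowhere. For rhBMP-2/ACS relative to vehicle/ACS at 3 dps, the log2 fold changes were -0.02 for Acss2 (acetyl-CoA from acetate), 0.04 for Acaca (acetyl-CoA carboxylase), -0.31 for the elongase Elovl5, -0.20 for the acyl-CoA synthetase Acsl3 and 0.11 for the phosphatidate phosphatase Lpin1. Fatty acid genes that passed on that day were thus the citrate lyase and 2 desaturases, while Acaca, the carboxylase between them, had an estimate near 0 with a 95% interval from -0.32 to 0.40.

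Without replicate 3 of rhBMP-2/ACS, Acat2 and Fads2 were the called genes of rhBMP-2/ACS relative to vehicle/ACS at 3 dps, that is 1 sterol and 1 fatty acid gene, where 0.565% of all probes were called lower. The estimates of the genes no longer called were then -0.49 for Scd (adjusted p = 0.0698), -0.36 for Stard4 (0.277), -0.33 for Srebf1 (0.21), -0.32 for Nsdhl (0.122), -0.27 for Acly (0.136) and -0.21 for Sqle (0.279). All 15 sterol enzymes were still below 0, with a median of -0.17 in place of -0.28, and the fatty acid genes kept a median of -0.20 with 6 of 9 below 0. In 14 of the 29 genes both remaining arrays lay below every vehicle/ACS array (15.4% of all probes). Without replicate 2 of vehicle/ACS, Acat2, Scd and Fads2 were called. Over all 15 alternative settings run for each, the estimate ranged from -0.34 to -0.30 for Acat2 and from -0.76 to -0.49 for Scd. For Fads2 it ranged from -0.71 to -0.35, and each of these 3 passed in 13 of the 15. The other called genes passed in fewer settings: 11 for Nsdhl, 9 for Srebf1, 8 for Sqle, 6 for Stard4 and 6 for Acly.

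Against no sponge at 3 dps, which uses the same rhBMP-2/ACS arrays, 5 of 29 genes were lower and 0 higher, where 3.33% of all probes were called lower and 4.21% higher. They were Mvd, Sqle, Srebf1, Scd and Fads2. All 15 sterol enzymes were again below 0, with a median of -0.21 against -0.04 over all probes, and 11 of the 29 genes had rhBMP-2/ACS arrays below every no sponge array (12.4% of all probes). Without replicate 3 of rhBMP-2/ACS, 0 of the 29 genes passed, Srebf1 included (-0.31, adjusted p = 0.249), where 0.357% of all probes were called lower, and 13 of 15 sterol enzymes were below 0 with a median of -0.16. Both remaining arrays then lay below every no sponge array in 13 genes (16.1% of all probes). Vehicle/ACS against no sponge on that day called 0 of the 29 genes, where 0.341% of all probes were called. At an unadjusted p under 0.05 there were 3 of the 29 genes and 1647 of the 12029 probes. In 3 genes every vehicle/ACS array was above every no sponge array (7.16% of all probes). The median over the 29 was 0.05, with 19 above 0.

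**Figure D3:**
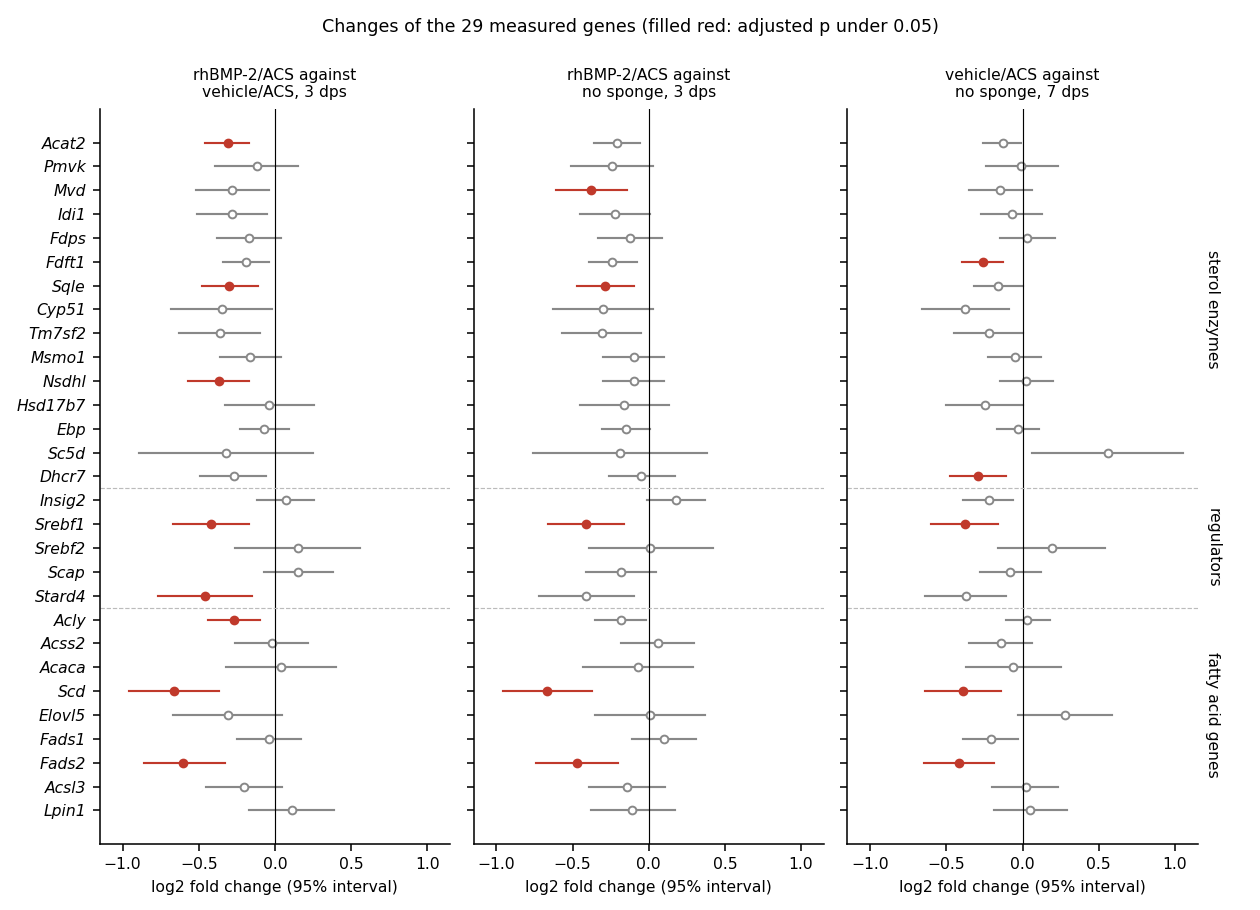
Log2 fold change with its 95% interval (horizontal axes) for the 29 measured genes, in rhBMP-2/ACS against vehicle/ACS and against no sponge at 3 dps and in vehicle/ACS against no sponge at 7 dps. Filled red points passed an adjusted p of 0.05. Every sterol enzyme lies left of 0 in both panels of 3 dps, and all 8, 5 and 5 called genes lie left of 0.

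Markers of other cells moved with the same arrays at 3 dps. Of 10 measured macrophage markers, 8 were higher in rhBMP-2/ACS than in vehicle/ACS (median log2 fold change 1.14), and their summed intensity was 3339, 3801 and 6118 against 1279, 1605 and 2582. Of 10 fibroblast and matrix genes, 9 were higher (median 0.92), with sums of 22250, 25359 and 31578 against 12292, 14486 and 20893. Of 14 sensory neuron markers, 4 were lower (Snap25, Stmn2, Nefm and Uchl1) and 0 higher. The median of the 14 was -0.18 and 13 were below 0. Their sums were 95847, 96824 and 91289 against 107171, 104681 and 99802. Replicate 3 of rhBMP-2/ACS, with the lowest sterol mean, thus also had the highest macrophage and matrix sums and the lowest neuron sum of that group. Of 10 myelinating Schwann cell markers, 2 were higher (Gldn and Egr2), the median was -0.08 and the sums overlapped, at 28800 to 30989 against 27609 to 30879. Of 7 satellite glia genes, 1 was higher (Gfap). Of 11 measured adipocyte genes, 1 was higher (Cd36, which macrophages also express). Adipoq and Lep of that list were not detected, while Fabp4, Cidec, Retn and Pparg were among the measured ones. Of 5 skeletal muscle genes, 0 passed. The part of these cell types in the lower lipid genes was not tested.

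Such markers moved likewise between the same rhBMP-2/ACS arrays and no sponge. Of the macrophage markers 8 of 10 were higher (median 1.06, no sponge sums of 1734 to 2357), and of the fibroblast and matrix genes 5 of 10 (median 0.64, no sponge sums of 15658 to 19845). Uchl1, Tubb3 and Nefm, 3 of the 14 neuron markers, were lower (median -0.16, 13 below 0, no sponge sums of 99696 to 107770). Among the 10 Schwann cell markers, Mbp, the gene of myelin basic protein, was lower (-0.53, SE 0.157, adjusted p = 0.0345), Gldn and Egr2 were higher, and the median was -0.18, with sums of 25193 to 30511 without sponge, a range that overlapped that of rhBMP-2/ACS. Gfap of the satellite glia genes and Cd36 of the adipocyte genes were higher. Their part in the genes lower than without sponge was not tested.

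Related genes outside the 35 were examined at 3 dps for the same pair of groups. Ggps1 and Dhdds, which turn farnesyl units toward prenylation and dolichol, had a median of -0.36 and 0 of 2 passed. Of 8 genes of cholesterol uptake and transport, 0 passed in either direction (median 0.08). Of 12 genes of cholesterol efflux and oxysterol signalling, 2 were higher, Ch25h (cholesterol hydroxylase, 1.34, SE 0.254, adjusted p = 0.00135) and Nr1h3 (liver X receptor alpha, 0.77, SE 0.199, adjusted p = 0.0125), and 1 was lower, the exporter Abcg1 (-0.32, SE 0.105, adjusted p = 0.0451). The median of those 12 was -0.10, with 7 below 0. Of 14 other fatty acid and triglyceride genes, 1 was higher, the acyltransferase Agpat2 (0.67, SE 0.2, adjusted p = 0.0297). The 14 nevertheless had a median of -0.20, with 10 below 0. Their sums were 6914 to 7619 with rhBMP-2/ACS against 7821 to 8698 with vehicle/ACS. Against no sponge, Ch25h, Nr1h3 and the exporter Abca1 (0.60) were higher, and Mid1ip1 (-0.36, SE 0.0744, adjusted p = 0.0035), which activates acetyl-CoA carboxylase, and Slc25a1 (-0.34, SE 0.101, adjusted p = 0.0376), the mitochondrial citrate carrier, were lower.

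At 7 dps, vehicle/ACS against no sponge was the comparison with genes called by their brightest probes. The study's table of animals lists no sponge rats for its arrays at 1 and 3 dps but not at 7 dps. In the labels, the no sponge arrays of 7 dps are numbered after those of both sponge groups. Whether they were handled apart is not stated and was not tested. With vehicle/ACS, 5 of 29 genes were lower than without sponge and 0 higher, where 3.96% of all probes were called lower and 6.22% higher. They were Fdft1, Dhcr7, Srebf1, Scd and Fads2. Of all calls in this comparison, 748 were higher and 476 lower, and with the arrays' medians equalized in place of quantiles 607 were higher and 793 lower, and 9 of the 29 genes were lower. Of the 29 genes, 8 had vehicle/ACS arrays below every no sponge array, against 8.61% of all probes. The sterol enzymes had a median of -0.13 with 12 of 15 below 0 (all probes -0.04, 58.1% below 0). Without replicate 4 of no sponge, or without replicate 2 of vehicle/ACS, Fdft1 was the called gene. Leaving out any 1 array of the compared groups left 0 to 1 fatty acid genes called in place of 2, and Scd passed in 8 of its 17 alternative settings, in none of which its estimate was above -0.35. The same marker lists moved here too: 8 of 10 macrophage genes were higher (sums of 3948 to 5095 against 1670 to 2001), 9 of 10 fibroblast and matrix genes were higher (25121 to 35988 against 14892 to 17131), and 3 of 14 neuron markers were lower (98897 to 101966 against 104466 to 107652). The 14 neuron markers had a median of -0.12, with 10 below 0. Of 10 Schwann cell markers, 2 were higher (Egr2 and Gldn). The Schwann cell sums with vehicle/ACS, 28801 to 30615, all lay above those without sponge, 24067 to 26039. The satellite glia sums lay the other way, at 8738 to 9624 against 10677 to 12069, with Gfap higher and Fabp7 lower. Of 11 adipocyte genes, 2 were higher, Cfd and Cd36, with sums of 1228 to 1343 against 1008 to 1158 and Adipoq and Lep not detected. Their part in the lower lipid genes was not tested.

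Of the efflux genes at 7 dps, Cyp27a1, Pltp and Abca1 were higher with vehicle/ACS than without sponge (0.37, 0.28 and 0.42) and Lcat, which esterifies cholesterol on lipoproteins, was lower (-0.39, SE 0.111, adjusted p = 0.021). The 12 efflux genes had a median of -0.06, with 8 below 0. Npc2, which hands cholesterol out of lysosomes, was higher (0.29, SE 0.081, adjusted p = 0.0186).

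RhBMP-2/ACS at 7 dps differed from vehicle/ACS in 0 of 29 genes, where 0.0% of all probes were called by limma. At an unadjusted p under 0.05 there were 4 of the 29 genes and 777 of the 12029 probes, with Fdft1 at 0.21 (SE 0.0655, adjusted p = 0.54) having the lowest p of the 29. The median over the 29 was 0.10, with 20 above 0. Against no sponge, rhBMP-2/ACS was called in 0 of 29 genes by their brightest probe (1.04% of all probes called lower and 2.59% higher). The median over the 29 was -0.05, with 20 below 0, where vehicle/ACS against no sponge had 21 below 0. At an unadjusted p under 0.05 there were 2 genes and 2167 probes. The macrophage sums of rhBMP-2/ACS, 2849 to 3980, lay between those of no sponge and, but for 1 array, those of vehicle/ACS.

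The difference between rhBMP-2/ACS and vehicle/ACS itself changed from 3 to 7 dps in 9 of 29 genes, all upward, where 2.34% of all probes changed upward by this test. This change was 0.93 for Scd (SE 0.19, adjusted p = 0.00335), 0.70 for Fads2, 0.67 for Stard4, 0.66 for Srebf1, 0.52 for Nsdhl, 0.46 for Dhcr7, 0.42 for Sqle, 0.40 for Fdft1 and 0.35 for Acat2. It draws on the same 3 dps arrays as the differences above, and all 15 sterol enzymes had a positive estimate (median 0.35). Without replicate 3 of rhBMP-2/ACS at 3 dps, 2 genes passed and 14 of 15 sterol enzymes had a positive estimate (median 0.31), and 3 genes passed without replicate 2 of vehicle/ACS at 3 dps. From 1 to 3 dps, 0 of 29 genes passed (0.216% of all probes changed downward), with a sterol median of -0.23, or -0.15 without replicate 3 of rhBMP-2/ACS. At an unadjusted p under 0.05 there were 11 of the 29 genes, or 7 without that array, and 1880 of the 12029 probes. The difference between vehicle/ACS and no sponge changed from 3 to 7 dps in 1 gene, Dhcr7 (-0.52, SE 0.14, adjusted p = 0.0329), where 0.890% of all probes changed downward, and from 1 to 3 dps in 0 (0.0% of all probes), with 1 gene and 1029 probes at an unadjusted p under 0.05.

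**Figure D4:**
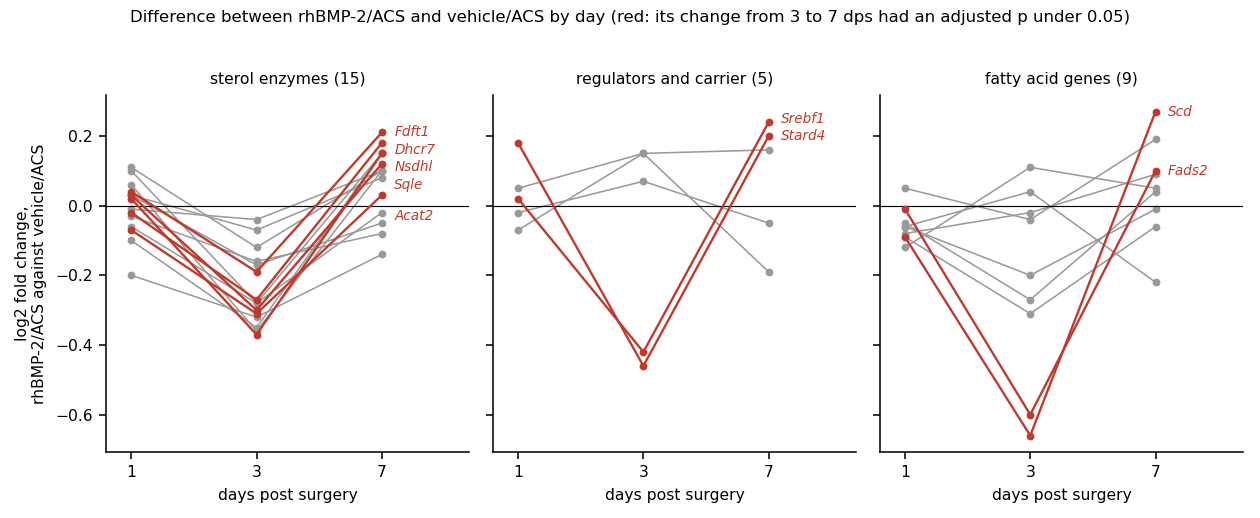
Log2 fold change of rhBMP-2/ACS against vehicle/ACS (vertical axis) at 1, 3 and 7 dps (horizontal axis) for the 15 sterol enzymes, 5 regulators and carriers and 9 fatty acid genes. Each line is a gene, and red lines are the 9 genes whose difference changed from 3 to 7 dps past an adjusted p of 0.05. The red lines lie below 0 at 3 dps and above it at 7 dps.

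At 1 dps none of the 29 genes was called in any of the 3 comparisons, where limma called 0.0% of all probes, and 0 of the 29 had an unadjusted p under 0.05, which 413 to 751 of the 12029 probes had. The medians over the 29 were -0.02 for rhBMP-2/ACS against vehicle/ACS, -0.01 for vehicle/ACS against no sponge and 0 for rhBMP-2/ACS against no sponge. Estimates ranged from -0.20 to 0.18 for rhBMP-2/ACS against vehicle/ACS. Macrophage sums overlapped between all groups on that day, at 1787 to 3764 with rhBMP-2/ACS, 2109 to 3247 with vehicle/ACS and 2154 to 3377 without sponge.

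Levels also differed between days. Day and any difference in the handling of the arrays of a day cannot be told apart here, so these are given without a test. The no sponge mean moved over the days by a median of 0.32 on the log2 scale, and by over 0.5 in 7 of 29 genes. It moved most in Elovl5, from 8.71 at 1 dps to 8.24 at 3 dps and 5.97 at 7 dps, and all 12 arrays of 7 dps (5.84 to 6.79) lay below all arrays of the earlier days (8.06 and above). Srebf2 went from 6.30 and 6.62 to 5.28, and Scap from 10.15 to 9.21 and 9.08. Dhcr7 rose from 9.58 to 10.14 and 10.21, and Fads2 had its lowest no sponge mean at 3 dps (6.73 against 7.24 and 7.28), so that its level with rhBMP-2/ACS at 3 dps was the lowest of all groups and days.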

How the data were processed

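RNA of whole L4 and L5 dorsal root ganglia was labelled and hybridized, on 33 arrays, to Illumina Rat Ref-12 BeadChips per the study's methods, although the labelling protocol in the labels names a MouseRef-8 chip. The deposited intensity values are mean bead intensities per probe, exported by the authors from GenomeStudio without background subtraction or normalization, each with a deposited detection p-value. The GenomeStudio version is not given in the sources used here. A second deposited table holds intensities that the authors had background-subtracted and quantile normalized, and it served as an alternative. Here, limma 3.58.1 in R 4.3.3 applied neqc (offset 16, quantile normalization, with the negative controls derived by it from the detection p-values), and log2 values were used. Of 22523 probes, 12029 were kept, those with a detection p-value under 0.05 in 75% or more of a group's arrays. A symbol was given for 13793 probes and none for 8730, and a gene with several kept probes was read from the brightest.

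Group means of all 9 groups were fitted with lmFit and eBayes with a trend, and each comparison's p-values received a Benjamini-Hochberg adjustment over all kept probes, with a threshold of 0.05. The 3 groups of each day were compared with each other, and changes of a difference between days were tested as contrasts. Tests were checked on simulated data. Bounds are 95% intervals. Detected probes per array ranged from 10142 to 11674, and precision is limited by the number of arrays. Named genes were those past the threshold in any within-day comparison, up to 8 per class, filled to 4 per class by the lowest unadjusted p. The members, the other gene lists and the tests were chosen with earlier results of these data known. Alternatives were the authors' normalized values (floor 16), no background correction, equalized medians, no detection filter, the compared groups only, array quality weights, an unequal-variance statistic, the mean of a gene's probes, a replicate block and leaving out each array. Summaries were made with Python 3.11.15 and pandas 2.3.3.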

Additional observations from a re-analysis of the deposited data

Results flagged for a closer look

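In groups of 4 arrays, 84 sets of values of the named genes were examined for a single array whose gap to the nearest other exceeded Dixon's critical value of 0.829 of the range. Chance gives about 1 in 20, and 6 were found. Fdft1 stood at 10.19 in rhBMP-2/ACS replicate 4 at 7 dps, where the other arrays all rounded to 10.28. Dhcr7 stood at 10.44 in no sponge replicate 1 at 7 dps, against 10.11 to 10.14, in the group that vehicle/ACS was compared with. Srebf1 stood at 8.86 in rhBMP-2/ACS replicate 4 at 1 dps, against 9.24 to 9.29. Acly stood at 10.35 in vehicle/ACS replicate 1 at 1 dps, against 10.50 to 10.52. Scd stood at 11.30 in rhBMP-2/ACS replicate 2 at 7 dps, against 11.63 to 11.68, and Insig2 at 9.11 in rhBMP-2/ACS replicate 4 at 7 dps, against 8.77 to 8.82.

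The difference between rhBMP-2/ACS and vehicle/ACS changed from 3 to 7 dps in limma's test of that change itself, by log2 values of 0.35 for Acat2 (adjusted p = 0.0252), 0.40 for Fdft1 (adjusted p = 0.0145), 0.42 for Sqle (adjusted p = 0.032), 0.52 for Nsdhl (adjusted p = 0.0155) and 0.46 for Dhcr7 (adjusted p = 0.045). For the other genes it was 0.66 for Srebf1 (adjusted p = 0.0135), 0.67 for Stard4 (adjusted p = 0.0399), 0.93 for Scd (adjusted p = 0.00335) and 0.70 for Fads2 (adjusted p = 0.0143). The difference between vehicle/ACS and no sponge changed by -0.52 for Dhcr7 (adjusted p = 0.0329), whose no sponge replicate 1 at 7 dps is the high array named above.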

How the results depend on the processing

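No named value changed sign under any alternative run. For rhBMP-2/ACS relative to vehicle/ACS at 3 dps, 3 sterol and 3 fatty acid genes were called, and with the compared groups only 0 and 1 were, and with the unequal-variance statistic 0 and 0. For rhBMP-2/ACS against no sponge at 3 dps, 2 sterol and 2 fatty acid genes were called, with no background correction 1 and 1, with the compared groups only 0 and 0, and with the unequal-variance statistic 0 and 0, while no detection filter and array weights each left 0 sterol genes. For vehicle/ACS against no sponge at 7 dps, 2 and 2 were called, with equalized medians 4 sterol genes, with no detection filter 1 and 1, with the compared groups only 1 sterol gene and with the unequal-variance statistic 0 and 1. The change from 3 to 7 dps was called in 9 genes for rhBMP-2/ACS against vehicle/ACS and 4 with the compared groups only, and for vehicle/ACS against no sponge in 1 and 0. The compared groups hold fewer arrays, and other causes were not tested. Leaving out 1 array gave 1 to 5 sterol and 1 to 3 fatty acid genes for rhBMP-2/ACS relative to vehicle/ACS at 3 dps, 0 to 2 and 0 to 2 against no sponge, and 1 to 2 and 0 to 1 for vehicle/ACS against no sponge at 7 dps. It gave 0 to 1 genes for the change of rhBMP-2/ACS against vehicle/ACS from 1 to 3 dps, 2 to 11 from 3 to 7 dps, and 0 to 2 for vehicle/ACS against no sponge from 3 to 7 dps. With equalized medians, calls over all probes at 7 dps split as 250 higher and 214 lower for rhBMP-2/ACS against no sponge, instead of 312 and 125, and the change of vehicle/ACS against no sponge from 3 to 7 dps as 258 and 162 instead of 344 and 107. The authors' normalized values called 3 probes lower in rhBMP-2/ACS relative to vehicle/ACS at 7 dps, where the main setting called 0.

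Same-numbered arrays are tied by their numbers in the labels alone. Their deviations correlated over 0.1 in 2 of 12 pairs at 1 dps, 4 of 9 at 3 dps and 0 of 12 at 7 dps, so that the numbers were not used to pair samples, although at 3 dps 7 of 9 arrays correlated best with their own number, a hint from the data and not from the design (4 of 12 and 2 of 12 on the other days). With a replicate block, the counts were 3 and 3, 2 and 2, and 2 and 2 in the same order as above, and 8 genes for the change of rhBMP-2/ACS against vehicle/ACS from 3 to 7 dps. Stard4 relative to vehicle/ACS at 3 dps (adjusted p = 0.0659) and its change from 3 to 7 dps (adjusted p = 0.0564) no longer passed in limma, and against no sponge at 3 dps Acat2 (adjusted p = 0.043) took the place of Sqle (adjusted p = 0.0612).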
